A study of Homo sapiens with 20 samples.

Results

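Metallothioneins are small cysteine-rich proteins that bind zinc, copper and cadmium. Here 8 of their genes were described, *MT1A*, *MT1E*, *MT1F*, *MT1G*, *MT1H*, *MT1M*, *MT1X* and *MT2A*, chosen by symbol from 60624 identifiers listed for human islet-like organoids (hILOs) and 60623 listed for pancreatic progenitors (PPs). Values of the hILO genotype comparison were among those that brought these genes forward, so that comparison is given for them as a description without a test. All cells came from the MEL1 human embryonic stem cell line, given in the study's methods as MEL1 INSGFP/W, a reporter line that carries GFP at an *INS* allele. They were either wild type (WT) or with *ALKBH5*, which encodes an eraser of the RNA mark m6A, knocked out by CRISPR-Cpf1 (A5-KO). The labels name 1 A5-KO genotype and no second line, so genotype and clone cannot be told apart. The hILO libraries were 2 WT and 2 A5-KO. The PP libraries were 2 of each genotype at 0, 1, 2 and 3 h of actinomycin D (Act D, 1 µg/ml), which stops transcription, 16 in all. Both genotypes passed through the same media, and all hILO media contained 10 µM zinc sulfate, whereas the PP media name none.

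In cells, free zinc is sensed by the transcription factor MTF1, which binds metal response elements in the promoters of metallothionein genes and of *SLC30A1*, the zinc exporter of the plasma membrane. Metallothioneins then buffer the metal. The liver and the endocrine pancreas, whose insulin granules are rich in zinc, are tissues in which metal handling has been studied closely.

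The 8 genes lie within 75.6 kb of chromosome 16 (GRCh38, GENCODE annotation), from *MT2A* at chr16:56608584-56609497 to *MT1X* at chr16:56682470-56684196. *MT1E* (chr16:56625475-56627112), *MT1M* (chr16:56632659-56633981), *MT1A* (chr16:56638666-56640087), *MT1F* (chr16:56657731-56660698), *MT1G* (chr16:56666730-56668065) and *MT1H* (chr16:56669814-56671129) lie between them. *MT1G* is on the minus strand and the other 7 are on the plus strand. Each has 3 exons in its first annotated transcript, and in the annotation 321 of the 1727 exon bases of *MT1X* also belong to a second gene, so its reads could be counted with that gene.

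The RefSeq promoter table (GRCh38.p14) held 3 of the members, and the 250 bases before their annotated starts are shown because the members' promoters are where metal response elements are known. Capitals mark the core of that element, TGCACNC or TGCGCNC, searched on both strands, so that a match on the minus strand appears as its reverse complement. Each stretch is on the plus strand, 5′ to 3′.
*MT2A* promoter, chr16:56608334-56608583: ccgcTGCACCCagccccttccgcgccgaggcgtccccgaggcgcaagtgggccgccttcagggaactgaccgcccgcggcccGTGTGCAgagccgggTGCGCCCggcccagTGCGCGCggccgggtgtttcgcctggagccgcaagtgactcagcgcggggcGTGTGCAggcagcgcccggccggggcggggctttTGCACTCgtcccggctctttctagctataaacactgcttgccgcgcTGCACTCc
*MT1H* promoter, chr16:56669564-56669813: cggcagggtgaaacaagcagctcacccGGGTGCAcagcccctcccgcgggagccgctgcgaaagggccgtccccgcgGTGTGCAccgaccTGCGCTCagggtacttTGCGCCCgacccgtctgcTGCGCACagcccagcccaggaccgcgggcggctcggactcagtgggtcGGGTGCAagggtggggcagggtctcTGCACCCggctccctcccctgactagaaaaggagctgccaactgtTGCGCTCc
*MT1X* promoter, chr16:56682220-56682469: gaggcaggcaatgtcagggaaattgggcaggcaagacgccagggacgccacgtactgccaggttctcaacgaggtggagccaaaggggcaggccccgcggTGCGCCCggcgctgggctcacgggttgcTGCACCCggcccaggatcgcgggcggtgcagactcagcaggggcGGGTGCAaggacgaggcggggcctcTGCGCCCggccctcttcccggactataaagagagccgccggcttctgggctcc
*MT2A* held 7 matches, *MT1H* 8 and *MT1X* 4. Of 35116 promoters of the same length in that table, 24.8% held at least 1 match, 0.37% at least 4 and 0.0313% at least 7. The promoter of *SLC30A1* held 1 match and that of *MTF1* 0. In *MT1H* and *MT1X*, matches began at the same places, 78 bases before the start on the minus strand and 53 bases before it on the plus strand. These are matches of letters and not measured binding.

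The coding sequences of the 8 genes were 88.5% to 94.5% identical over their 28 pairs, so possible sharing of reads was looked at by sequence. For each gene's first annotated transcript, every stretch of 150 bases (the read length) was compared with all annotated metallothionein transcripts and pseudogenes. No stretch of any member was identical to another gene. Allowing 5 mismatches, 22.2% of the stretches of *MT1H* came close to another gene, and all 55 of them to *MT1HL1*, a copy outside the cluster. For *MT2A* the share was 15.5%, to *MT2P1* or *MT1G*. It was between 1.6% and 6.3% for *MT1E*, *MT1G*, *MT1M* and *MT1X* and 0.0% for *MT1A* and *MT1F*. Among the members themselves, only *MT1G* and *MT2A* came this close to each other, over 7 stretches of each. How the counters treated such reads is not given in the sources used here, so members' single values carry this limit. Sums over the family, given with the hILO values, are not free of it either. TPM depends on transcript length, and the sum over the 8 members leaves out copies such as *MT1HL1* and *MT2P1*.

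*ALKBH5* was listed in hILOs at 78.8 and 81.9 TPM (transcript abundance, scaled by length and by the library's total) in WT against 4.16 and 3.42 TPM in A5-KO. In PPs at 0 h it was listed at 149 and 172 CPM (reads scaled to the library's total) in WT against 19.1 and 18.8 CPM in A5-KO. Over all PP times it was between 33.7 and 172 CPM in WT and between 7.43 and 19.1 CPM in A5-KO, so the genotypes did not overlap. In WT *ALKBH5* fell at each time, from 5200 and 5548 reads at 0 h to 4649 and 3857 at 1 h. It was at 3336 and 2809 reads at 2 h and lowest at 3 h, at 1620 and 1068 reads (48.3 and 33.7 CPM). The WT libraries of 3 h stood apart in *TTR*, a hepatocyte marker higher in A5-KO. *TTR* was there at 15.2 and 22.8 CPM, against 6.54 to 8.26 CPM in the other WT libraries and 35.1 to 48.7 CPM in A5-KO. The cause was not tested. The PP libraries held 30516384 to 35206514 reads. The depth of the hILO libraries cannot be read from TPM, so their counting error is unknown. Labels do not say whether replicates came from separate differentiations, and the p-values measure only the spread between these libraries.

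In hILOs, 7 of the 8 genes were lower in A5-KO. Their A5-KO libraries all lay below their WT libraries, while *MT1A* overlapped between genotypes. The sum over the 8 genes was 1001 and 987 TPM in WT against 381 and 385 TPM in A5-KO, which left 38.5% of the WT mean. The SD between libraries of a genotype was 9.75 TPM in WT against 2.69 TPM in A5-KO. The sum over all 21 metallothionein genes and pseudogenes listed left 39.4% of WT. In bulk libraries, fewer cells that express these genes and less RNA per cell cannot be told apart.

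**Figure D1:**
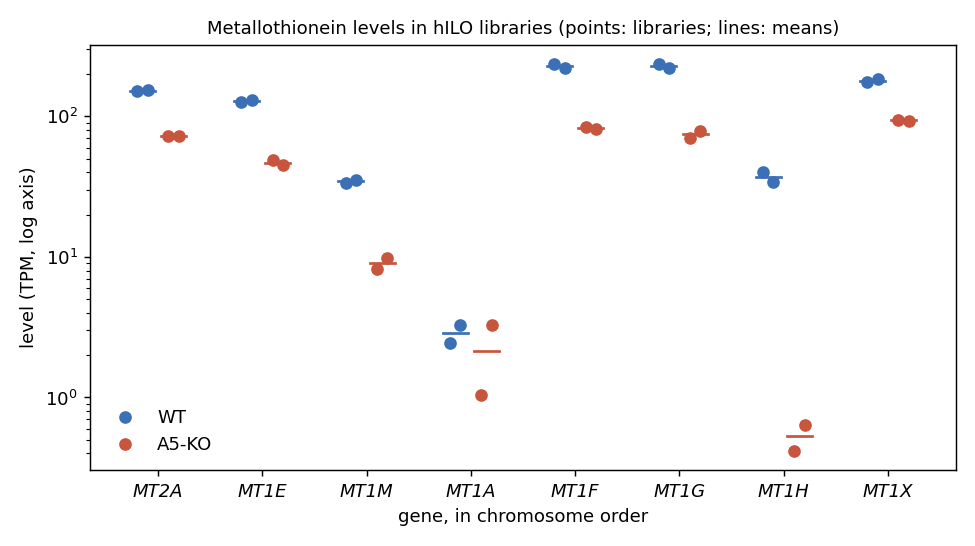
Level of each metallothionein gene in the 2 WT and 2 A5-KO hILO libraries, in TPM on a log axis, with genes in chromosome order; points are libraries and lines are means. Only *MT1A* overlaps between genotypes, and *MT1H* lies at 34.2 or more in WT and at 0.639 or less in A5-KO.

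*MT1H* showed the lowest remaining level. It was listed at 40.2 and 34.2 TPM in WT against 0.417 and 0.639 TPM in A5-KO, 1.42% of the WT mean. The change was -4.64 ± 0.16 (SE) on the log2(TPM + 1) scale, which understates changes of low genes, and -5.91 with a pseudocount of 0.1. *MT1HL1*, the copy that shares stretches with *MT1H*, was listed at 2.89 and 3.99 TPM in WT and at 0 in both A5-KO libraries, so both genes were low in A5-KO.

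*MT1M* was listed at 33.8 and 35.4 TPM in WT against 8.19 and 9.84 TPM in A5-KO, a log2 change of -1.84 ± 0.11 (SE). *MT1G* was listed at 236 and 223 TPM in WT against 70.6 and 79.0 TPM in A5-KO, a log2 change of -1.61 ± 0.07. Both were among the members left at the smallest part of their WT mean, 26.0% for *MT1M* and 32.6% for *MT1G*, after *MT1H*.

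*MT1E* was listed at 128 and 131 TPM in WT against 48.6 and 44.9 TPM in A5-KO, a log2 change of -1.45 ± 0.06 (SE). *MT1F* was listed at 236 and 222 TPM in WT against 84.6 and 81.5 TPM in A5-KO, also a log2 change of -1.45, with an SE of 0.05. These neighbours in size of change were left at 36.2% and 36.3% of WT.

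*MT2A*, the member usually expressed most widely across human tissues, was listed at 150 and 155 TPM in WT against 72.9 and 72.0 TPM in A5-KO, a log2 change of -1.07 ± 0.04 (SE). *MT1X* was listed at 175 and 184 TPM in WT against 94.4 and 93.4 TPM in A5-KO, a log2 change of -0.93 ± 0.05. They were the 2 members with the smallest change among the 7 that did not overlap, at 47.4% and 52.4% of WT. *MT1A* was listed at 2.44 and 3.30 TPM in WT against 1.03 and 3.28 TPM in A5-KO, and its log2 change of -0.38 ± 0.42 became 0.15 without the first A5-KO library.

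The order of the genes changed with genotype. In WT, *MT1G* and *MT1F* were highest, at means of 229 TPM each, with overlapping libraries, followed by *MT1X*, *MT2A* and *MT1E*. *MT1H* and *MT1M* came next and overlapped, and *MT1A* was last. In A5-KO, *MT1X* was highest at a mean of 93.9 TPM, followed by *MT1F* at 83.0 TPM, then *MT1G* and *MT2A*, which overlapped. *MT1H* was last. As a share of the family's summed TPM, *MT1X* made up 17.4% and 18.6% in the WT libraries and 24.8% and 24.3% in A5-KO. *MT1H* made up 4.01% and 3.46% in WT and 0.109% and 0.166% in A5-KO.

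By the rule used for calls over all genes (limma, adjusted p below 0.05 and more than 1.5-fold), 4.09% of the 17300 genes tested were called lower in A5-KO, 7 of the 8 members among them. Both A5-KO libraries lay below both WT libraries for 37.1% of those genes. The median log2 change of the 8 members was -1.45, and that of all genes tested -0.06. Since the members were chosen with this comparison known, these counts describe them and test nothing.

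Of 13 other metallothionein genes and pseudogenes, 4 passed the filter of a mean of 1 TPM, and 2 of them, *MT1HL1* and *MT2P1*, were called lower. *MT2P1*, the copy that shares stretches with *MT2A*, was listed at 39.0 and 30.3 TPM in WT against 15.0 and 14.6 TPM in A5-KO. *MT1B* was listed at 46.2 and 45.0 TPM in WT against 29.2 and 18.2 TPM in A5-KO, and *MT1L* at 8.81 and 7.52 TPM against 5.48 and 6.18 TPM, neither called. *MT1H* and *MT1HL1* moved the same way, as did *MT2A* and *MT2P1*. As reads may be shared within each pair, the values of copy and member are not independent.

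Genes that flank the cluster moved less than the 7 lower members. Of 6 protein-coding genes described within 250 kb of it, 5 passed the filter and 0 were called by limma in hILOs, against 6.79% of all genes called in either direction. An unadjusted p under 0.05 was found for 3 of the 5. On the *MT2A* side, *NUDT21* had a log2 change of -0.34 ± 0.07 (SE, adjusted p = 0.0486), which is under 1.5-fold. On the *MT1X* side, *NUP93* had a log2 change of -0.40 ± 0.12 (adjusted p = 0.104) and *HERPUD1* of -0.21 ± 0.04 (adjusted p = 0.0503).

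**Figure D2:**
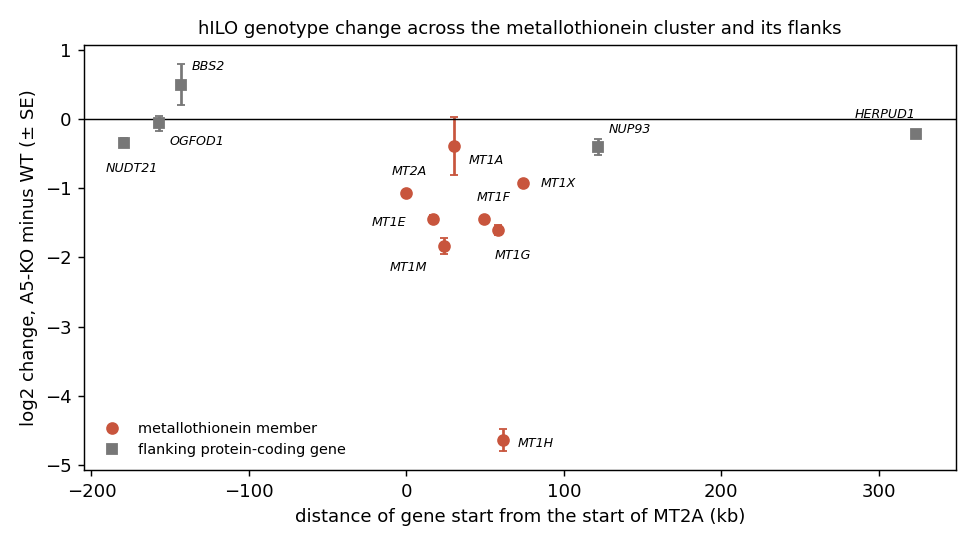
Log2 change of A5-KO against WT in hILOs (log2(TPM + 1), ± SE) against the distance of each gene's start from the start of *MT2A* in kb. Circles are the 8 members and squares the 5 flanking protein-coding genes that passed the filter, which stay between -0.40 and 0.50 while 7 members lie at -0.93 or below.

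The genes that sense and move the metals were measured beside them. *MTF1*, the zinc-sensing factor, was listed at 3.69 and 4.14 TPM in WT against 4.04 and 3.42 TPM in A5-KO, so the genotypes overlapped (log2 change -0.06 ± 0.16 SE, adjusted p = 0.840, limma). *SLC30A1*, the zinc exporter, was listed at 58.1 and 60.0 TPM in WT against 72.1 and 70.9 TPM in A5-KO. It was thus higher in both A5-KO libraries, where the metallothioneins were lower, by a log2 change of 0.27 ± 0.05 (SE, adjusted p = 0.0404), which is under 1.5-fold.

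Limma called 0 of 8 zinc exporters of the SLC30 family tested, 0 of 12 zinc importers of the SLC39 family, 0 of 8 copper-handling genes and 0 of 8 targets of NRF2, the factor of the oxidative stress response. Their median log2 changes were 0.17, 0.07, 0.13 and 0.09, and 3, 7, 3 and 4 of them had an unadjusted p under 0.05. The share of all genes at that unadjusted limit is not given, here or for other lists. Such counts are therefore not read as a result about a list. Some genes of these lists passed the adjusted threshold with changes under 1.5-fold. *ATOX1*, a copper chaperone, had a log2 change of 0.38 ± 0.04 (SE, adjusted p = 0.0175), and *HMOX1*, which degrades heme, of -0.42 ± 0.05 (adjusted p = 0.0220).

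Markers of cell types also differed between the hILO genotypes. Of 12 hepatocyte markers, all of which passed the filter, 4 were called higher and 4 lower in A5-KO, with a median log2 change of 0.16. Their summed level was 21384 to 21683 TPM in WT against 36331 to 36609 TPM in A5-KO. The largest part was *TTR*, at 7539 TPM on average in WT against 18711 TPM in A5-KO. Of 11 islet endocrine markers tested, 4 were called lower, *INS*, *GCG*, *SST* and *PPY*. Called higher was 1, *NEUROD1*, at 208 and 209 TPM in WT against 352 and 350 TPM in A5-KO. Without a call, *INSM1* and *SCG5* lay higher in both A5-KO libraries, *CHGA*, *PCSK1* and *PCSK2* lay lower and *CHGB* overlapped. The sum over all 12 listed was 35465 to 37765 TPM in WT against 27386 to 28630 TPM in A5-KO. The islet hormones were present in both genotypes, *INS* at 13005 TPM on average in WT against 7605 TPM in A5-KO. Of 5 mesenchyme markers tested, 3 were called higher and 1, *VIM*, lower. The sum over all 10 listed was 262 to 268 TPM in WT against 162 to 169 TPM in A5-KO. Most of that sum was *VIM*, at 253 and 254 TPM in WT against 121 TPM in both A5-KO libraries. The other tested markers, *COL1A2*, *COL3A1*, *LUM* and *POSTN*, lay higher in both A5-KO libraries, so the sum follows *VIM* and not the list. Summed pancreatic progenitor markers were 436 TPM in both WT libraries and 408 to 410 TPM in A5-KO, without a call. Intestine markers summed to 4481 to 4504 TPM in WT against 3407 to 3486 TPM in A5-KO, with 1 of 6 called, *APOA4*, lower at 3681 against 2383 TPM on average, whereas the list's median log2 change was 0.39. Pluripotency markers summed to 20.5 to 20.6 TPM in WT against 8.63 to 8.75 TPM in A5-KO, with 2 of 6 tested. Most of the WT sum was *SOX2*, called lower, at 15.7 and 14.7 TPM in WT against 4.32 and 4.18 TPM in A5-KO. *LIN28A* was lower without a call, at 4.57 and 5.31 TPM against 3.87 and 3.78 TPM. *POU5F1* and *NANOG* were at 0.0581 TPM or less in every library. The part of cell makeup in the metallothionein levels was not tested.

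In PPs the metallothioneins were listed at very low levels. Together the 8 genes held between 13 and 157 reads of a library. *MT1A* was listed at 0 reads in all 16 libraries, where 3 reads, the limit that a count of 0 allows, equal 0.0852 to 0.0983 CPM. *MT1H* had 4 reads and *MT1M* 5 reads over all 16 libraries. These limits cover counting error only. A low value in this table is not proof of a silent gene: *EEF1G* and *MIF*, which most cells use, were listed at 0 as well, and 191 of 1560 genes above a mean of 100 TPM in hILOs were under 1 CPM in PPs. PP and hILO levels stand in different units and separate tables, and no test was made across them.

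At 0 h, the 8 genes summed to 115 and 157 reads in the WT libraries (3.30 and 4.86 CPM) and to 81 and 71 reads in the A5-KO libraries (2.50 and 2.08 CPM). Both A5-KO sums thus lay below both WT sums. *MT2A* was listed at 0.976 and 1.74 CPM in WT against 1.14 and 0.732 CPM in A5-KO, and the genotypes overlapped. *MT1F* was listed at 1.06 and 0.620 CPM in WT against 0.278 and 0.146 CPM in A5-KO. *MT1E* was listed at 0.574 and 1.39 CPM in WT against 0.371 and 0.439 CPM in A5-KO. For *MT1F* and *MT1E* the genotypes did not overlap, which held for 2 of the 5 members with at least 30 reads, and for 19.9% of all genes with as many reads in that direction. *MT1X* and *MT1G* overlapped, at 10 to 21 reads and 4 to 13 reads a library.

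Only *MT2A* passed the filter of a mean of 1 CPM at 0 h, and limma did not call it (log2 change -0.27 ± 0.23 SE, adjusted p = 0.575), nor did edgeR or DESeq2 on the same genes, against 2.7% of 13911 genes called. In an edgeR test on the recovered reads of genes with at least 30 reads, chosen after these values were seen, 0 of the 5 members tested were called, against 2.62% of 17580 genes. Of these, *MT1F* (adjusted p = 0.133) and *MT1E* (adjusted p = 0.282) were the 2 with an unadjusted p under 0.05. A missed threshold does not show that the members did not differ.

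After 1 h of Act D the metallothionein reads were fewer in both genotypes. The sum of the 8 genes was 13 and 32 reads in WT and 14 and 13 reads in A5-KO. At 2 h it was 44 and 39 reads in WT and 21 and 19 reads in A5-KO, and at 3 h 34 and 37 reads in WT and 44 and 44 reads in A5-KO. In each genotype both 1 h sums lay below all 0, 2 and 3 h sums, so the reads did not go on falling. As CPM this held in A5-KO, whereas the higher WT value at 1 h (1.04 CPM) lay above the lower one at 3 h (1.01 CPM). CPM under Act D is a share of the RNA that remains.

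**Figure D3:**
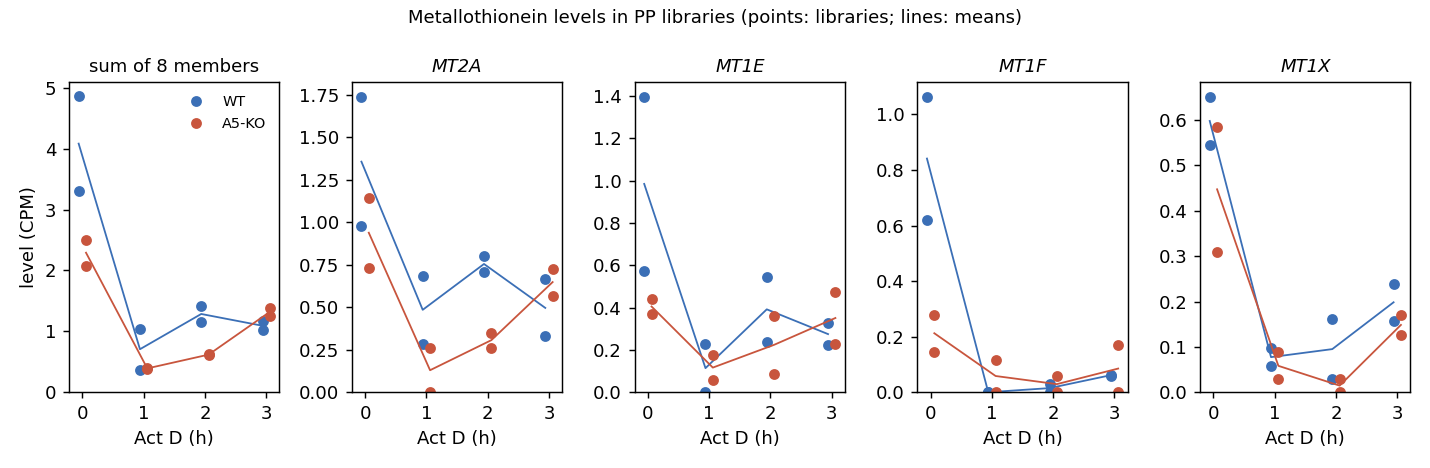
Summed CPM of the 8 members and CPM of *MT2A*, *MT1E*, *MT1F* and *MT1X* in PPs at 0 to 3 h of Act D; points are libraries and lines are means, with a separate vertical scale from 0 in each panel. The sum starts at 3.30 and 4.86 CPM in WT against 2.50 and 2.08 CPM in A5-KO and is at 0.372 to 1.04 CPM at 1 h.

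*MT1F* had 37 and 20 reads in WT at 0 h, then 0 in both libraries after 1 h, 0 and 1 after 2 h, and 2 in each library after 3 h. In A5-KO it went from 9 and 5 reads to 0 and 4 over the first hour. *MT1X* went from 19 and 21 reads to 2 and 3 in WT, and from 10 and 20 reads to 1 and 3 in A5-KO. Both genes were thus near the counting limit within the first hour.

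*MT2A* went in WT from 34 and 56 reads to 10 and 21 after 1 h, 22 and 27 after 2 h and 11 and 21 after 3 h. In A5-KO it went from 37 and 25 reads to 9 and 0, then 12 and 8, then 20 and 23. *MT1E* went in WT from 20 and 45 reads to 0 and 7 after 1 h, and in A5-KO from 12 and 15 reads to 2 and 6 after 1 h and 8 and 15 after 3 h. By 3 h *MT1E* in A5-KO overlapped its 0 h range again.

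For all 5 members with at least 30 reads over the PP libraries, both 1 h libraries lay below both 0 h libraries, in WT and in A5-KO, which held for 41.6% and 40.8% of all genes with as many reads. At 2 h it held again for all 5 in both (37.2% and 48.7% of all genes). At 3 h it held for 5 of 5 in WT (32.8% of all genes) and for 3 of 5 in A5-KO (46.6%). No member passed the filter of a mean of 1 CPM over the 16 libraries, so limma tested 0 of them. In the edgeR test of genes with at least 30 reads, *MT1F* was called lower at 1 h in WT (adjusted p = 0.0159) and at 2 h (adjusted p = 0.0273), 1 of 5 members against 7.79% and 8.85% of all genes. In A5-KO, edgeR called *MT2A* lower at 1 h (adjusted p = 0.0221, 8.12% of all genes) and *MT1X* at 2 h (adjusted p = 0.0156, 13.6% of all genes). At 3 h edgeR called 0 of 5 in either genotype, with an unadjusted p under 0.05 for 1 member in WT and 0 in A5-KO, against 4.66% and 16.7% of all genes called lower. Limma without a filter on low values, which tests 7 members against a pseudocount near the worth of 3 reads, called 4 of them lower in WT at 1 h, 3 at 2 h and 1 at 3 h, against 6.03%, 7.18% and 2.44% of 34073 genes. In A5-KO it called 3, 2 and 0, against 7.01%, 12.5% and 14.1%. Its WT calls at 1 h included *MT1M*, which had 5 reads over all libraries. *MT1F* at 1 h in WT and *MT2A* at 1 h in A5-KO were called lower by both tests.

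No difference in slope between genotypes was called for a member. The slope of log2 level on hours was compared between A5-KO and WT by edgeR for the same 5 members, and 0 were called, also 0 at an unadjusted p under 0.05, against 1.37% of 21343 genes. For *MT2A* the slope was -0.36 per hour in WT and -0.05 in A5-KO (adjusted p of the difference = 0.791), and for *MT1X* -0.50 and -0.53 (adjusted p = 0.991). For *MT1F* it was -1.42 and -0.39 (adjusted p = 0.576). A straight line over 0 to 3 h does not follow the drop at 1 h and later rise of *MT2A* in A5-KO. Its slope there is thus not a rate of decline. Without the 3 h libraries, a choice made after the values were seen, edgeR again called 0 of the 5 and found 0 at an unadjusted p under 0.05, against 0.337% of all genes.

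*SLC30A1*, the zinc exporter, was well counted in PPs and was called lower within the first hour in both genotypes. It was listed at 225 and 161 CPM in WT PPs at 0 h and 223 and 159 CPM in A5-KO, so untreated genotypes overlapped (log2 change -0.02 ± 0.17 SE, adjusted p = 0.973, limma). After 1 h its level was 7.69 and 11.2 CPM in WT against 14.3 and 11.8 CPM in A5-KO. After 2 h it was 7.29 and 17.3 CPM against 10.2 and 8.78 CPM, and after 3 h 27.4 and 36.3 CPM against 9.12 and 7.75 CPM. The log2 change at 1 h was -4.34 in WT and -3.85 in A5-KO (SE 0.31, adjusted p = 1.66e-06 and 3.77e-06). At 3 h both WT libraries, which had the lowest *ALKBH5* of WT and stood apart in *TTR*, were above both A5-KO libraries and above all WT libraries of 1 and 2 h. There, 3 of 11 hepatocyte markers were called higher than at 0 h in WT. The part of this in the *SLC30A1* values was not tested. The slopes over all times were not called different (adjusted p = 0.546), but those over 0 and 3 h alone were (difference -0.63 per hour, adjusted p = 0.00108), as for 22.0% of 13740 genes. Without the 3 h libraries the difference was -0.11 per hour (adjusted p = 0.947).

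At 0 h *MTF1* was listed at 17.1 and 13.9 CPM in WT against 19.2 and 13.3 CPM in A5-KO. By 3 h it was at 7.07 and 5.47 CPM in WT against 2.41 and 2.21 CPM in A5-KO. These WT libraries are those that stood apart in *TTR*. The slopes of *MTF1* over all times were not called different between genotypes (limma, adjusted p = 0.300). Limma called it lower at 3 h in both, by a log2 change of -1.30 ± 0.24 (SE, adjusted p = 0.00361) in WT and -2.74 ± 0.24 (adjusted p = 2.11e-07) in A5-KO, though the WT call was lost without the first WT library of 0 h (adjusted p = 0.0853). Of all genes tested, 9.37% were called lower at 3 h in WT and 32.0% in A5-KO, with 1276 lower and 60 higher in WT (70 lower without the first WT library of 0 h and 371 without the first of 3 h) and 4358 lower and 345 higher in A5-KO. Quantile normalization moved those splits to 824 lower and 261 higher and to 2471 lower and 2863 higher, and moved the median log2 change in A5-KO from -0.25 to 0.16, while both *MTF1* and *SLC30A1* stayed called lower.

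**Figure D4:**
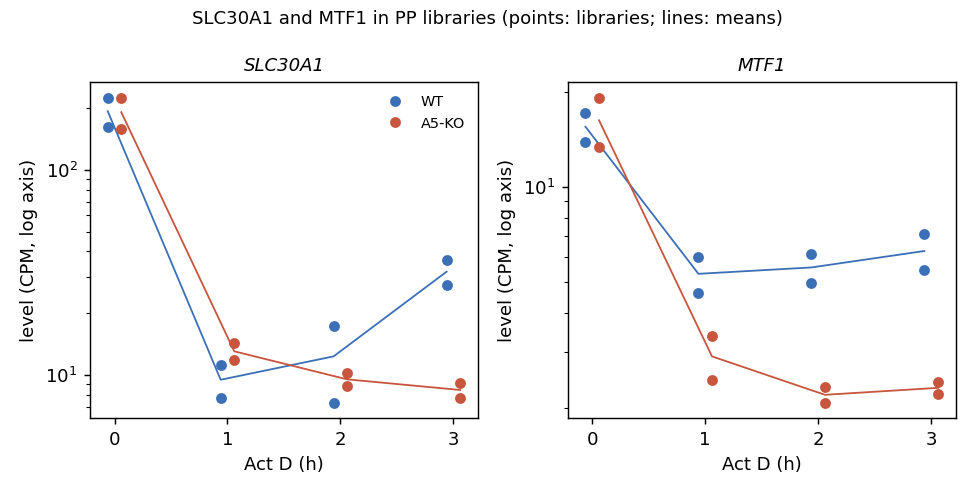
CPM of *SLC30A1* and *MTF1* in PPs at 0 to 3 h of Act D on log axes; points are libraries and lines are means. *SLC30A1* drops from 159 to 225 CPM at 0 h to 7.69 to 14.3 CPM at 1 h in both genotypes.

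Among the other metal and stress genes, limma called 0 of 8 zinc exporters, 0 of 11 zinc importers and 0 of 7 copper-handling genes between untreated PP genotypes, with 2, 4 and 1 at an unadjusted p under 0.05. Of 7 NRF2 targets tested, *SLC7A11*, a cystine transporter, was called higher in A5-KO, at 24.9 and 20.3 CPM against 9.90 and 9.23 CPM in WT (log2 change 1.15 ± 0.14 SE, adjusted p = 0.00226). In WT, 2 of the 7 NRF2 targets were called lower at 1 h of Act D, 1 at 2 h and 0 at 3 h. At 3 h of Act D in A5-KO, *SLC30A4*, *GCLC* and *GCLM* were called lower, as were 32.0% of all genes. *SLC30A4* went there from 4.08 and 3.75 to 1.36 and 1.30 CPM. *ATOX1* was called higher there, by a log2 change of 0.64, which fell to 0.57 and under 1.5-fold without the first A5-KO library of 0 h.

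Summed hepatocyte markers were also higher in untreated A5-KO PPs, at 1161 to 1220 CPM in WT and 1974 to 2010 CPM in A5-KO. Of 11 tested, 7 were called higher and 0 lower. The largest part was *AFP*, at 563 and 551 CPM in WT against 1343 and 1294 CPM in A5-KO. *SERPINA1* was lower without a call, at 311 and 371 CPM against 200 and 268 CPM. Mesenchyme markers summed to 543 to 549 CPM in WT and 656 to 664 CPM in A5-KO, 4 of 8 called higher. Progenitor markers summed to 1008 to 1275 CPM in WT and 947 to 1050 CPM in A5-KO, 1 of 7 called lower. Intestine markers summed to 597 to 626 CPM in WT and 800 to 827 CPM in A5-KO with 0 of 7 called. Summed pluripotency markers were at 124 to 127 CPM in WT and 236 to 250 CPM in A5-KO. In hILOs the sum, which was mostly *SOX2* in WT, was lower in A5-KO. Most of the PP sum was *LIN28A*, called higher, at 4158 and 3724 reads in WT against 7950 and 7846 in A5-KO. Of the 3 tested, *SOX2* and *DPPA4* were lower in A5-KO without a call. The list's median log2 change was -0.46, against -0.96 in hILOs. The part of these markers in the metallothionein values was not tested.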

How the data were processed

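RNA-seq of MEL1-derived WT and A5-KO cells was analysed, 4 hILO and 16 PP libraries, grouped by the sample labels. Reads were trimmed with fastp and aligned to GRCh38 with HISAT2 (2.1.0, default settings, from the submitters' processing notes and the paper). For hILOs the authors deposited TPM per gene, made with StringTie, which sum to 887320 to 924887 per library. For PPs the authors deposited CPM per gene after removal of the ERCC spike-ins; the read counter and annotation release are not given in the sources used here. All CPM values were whole multiples of the value of 1 read (within 0.05 of a read), which gave back the reads of each library.

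Genotypes were compared with limma (3.58.1, trend) on log2(TPM + 1) or log2(CPM + 1) and Act D times and slopes on log2(CPM + 0.1), for genes whose mean reached 1, with Benjamini-Hochberg adjustment over all genes. Alternatives used the recovered reads with edgeR (4.0.16, quasi-likelihood, TMM) or DESeq2 (1.42.0). The members and gene lists were chosen with earlier results of these data known. The design named limma for both tables, but the members fell under its filter in PPs, so the edgeR test with at least 30 reads was added after the values were seen. Outside the members, text genes were *MTF1*, *SLC30A1*, *ALKBH5*, the called genes of each list other than cell type markers (at most 3), other metallothionein genes with a mean of at least 1 and the 5 genes most like the members in PPs; a few flanking, list and marker genes, and genes whose listed value bears on a limit, were chosen after their values were seen. A further gene near the cluster is not reported here. Identifiers were matched to symbols (60370 of 60624 in hILOs and 60369 of 60623 in PPs). The scripts for the tests were tested on simulated data.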

Additional observations from a re-analysis of the deposited data

How the results depend on the processing

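The count of members called lower in hILOs was 7 under a pseudocount of 0.1, no filter, a filter at a mean of 5, both other scalings and the replicate block, and 6 to 7 with 1 library left out (6 without either WT library); 0 were called higher in each. As the members were chosen with that comparison known, this is no evidence of stability. In PPs at 0 h it was 0 in every alternative and 0 with 1 library left out, but a filter at a mean of 5, leaving out the second WT library and a fit of all 16 libraries tested no member. At 3 h of Act D in WT it was 0, and 1 (*MT1F*) without a filter. Slope differences were called for 0 members, which only no filter and edgeR on genes of at least 30 reads, with or without 3 h, tested. Of 420 recomputed values of single genes, 405 were counted as unchanged. For tested genes this means the same call, so a gene without a call could change sign and still count. For the members in hILOs it means a log2 change within the SE of the main value. Of the rest, 11 values of members moved by that SE or more, 2 lost a call and 2 gained one.

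Counts over all genes moved more. In hILOs 707 lower and 467 higher became 187 and 143 without a filter, 385 and 289 with the replicate block, and 96 to 203 lower and 83 to 118 higher with 1 library left out. At PP 0 h 157 and 218 became 77 and 87 without a filter and 266 and 365 with the block. Slope differences, 355 and 9, became 0 and 0 with the block or without a filter, 165 and 8 with a pseudocount of 1, 91 and 5 under median-of-ratios scaling and 23 and 2 under quantile normalization, 2739 and 290 over 0 and 3 h alone, 3 and 51 over 0 and 1 h, 0 and 16 without 3 h, and 0 to 1442 lower and 0 to 62 higher with 1 library left out. The cause was not tested.

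The labels give both genotypes the same replicate numbers but do not say that a number marks a shared culture. Same-numbered deviations correlated at 0.0443 in hILOs and between -0.113 and 0.289 in PPs, so the numbers were not taken as pairs; with the block, 7 members were called lower in hILOs and 0 in PPs. Depth limits the PP values, since no member exceeded 56 reads in a library, and each group has 2 libraries.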

Other observations

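The 5 genes other than metallothioneins whose log2(CPM + 1) most followed the summed members over the 16 PP libraries, among 8920 genes whose mean reached 10 CPM, were *LRRFIP1* (Pearson r = 0.913), *DPP8* (0.908), *ASH1L* (0.906), *UHMK1* (0.904) and *FAM13B* (0.902). *SLC30A1* stood at rank 74 (r = 0.807). The points share the Act D time course and the library totals, and these values are a description over 16 libraries without a test.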
